A study of Homo sapiens with 4 samples.

Results

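Melatonin, a hormone of the pineal gland, was compared with its solvent DMSO after 48 h in HepG2 cells, a human hepatocellular carcinoma (HCC) line of wild-type genotype. The comparison rests on 10582 of the 58302 genes listed in the files: those that are protein-coding, at least 200 bp long and at an FPKM (reads scaled by gene length in kilobases and by the size of the library) of at least 1 in either 48 h library. In the study, mRNA-seq was run on HepG2 cells given melatonin at 1 mM or DMSO for 24 h or 48 h, with 1 library for each of the 4 conditions. All cultures were grown in MEM with fetal bovine serum, sodium pyruvate and nonessential amino acids, and they differ by label only in treatment and time. With 1 library a side there is no spread between cultures to set a difference against, so no p-value is given. Intervals of ratios cover counting error only.

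HepG2 cells divide in culture and keep part of the hepatocyte program, in which the liver makes most plasma proteins, complement and lipoproteins, clears bile acids and drugs, and synthesizes cholesterol. Dividing cells copy their DNA with a machinery whose genes are largely switched on together at the G1/S transition by E2F transcription factors, and later genes of mitosis are often controlled through the CHR element. Secreted proteins fold in the endoplasmic reticulum (ER) with the help of chaperones, whose genes respond as a group in the unfolded protein response, and ATF4 drives a related program when amino acids are short or the ER is stressed. Melatonin is known to act through the membrane receptors MT1 and MT2 and, at high doses, also in ways that do not need them.

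A gene was counted as changed at a log2((melatonin FPKM + 1)/(DMSO FPKM + 1)) of at least 1 or at most -1, on which low genes appear to change less than they do. By this rule 253 genes changed at 48 h. Of these 109 were higher with melatonin, which is 1.03% of the genes compared, and 144 were lower, which is 1.36%. At 1.5-fold the counts were 717 higher (6.78%) and 673 lower (6.36%). The median log2 fold change of all compared genes was -0.01, with a 5th percentile of -0.65 and a 95th of 0.65. Mitochondrial genes took 9.77% of the DMSO reads and 11.9% of the melatonin reads at 48 h. When they were left out of the library size, 150 genes were higher and 125 lower, so that the split between the directions depends on the scaling. The values nearest the threshold were 1.00 for EVC inside and 0.998 for HAUS4 outside on the higher side, and -1.0001 for KLB inside and -0.9998 for NR2F6 outside on the lower side.

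**Figure D1:**
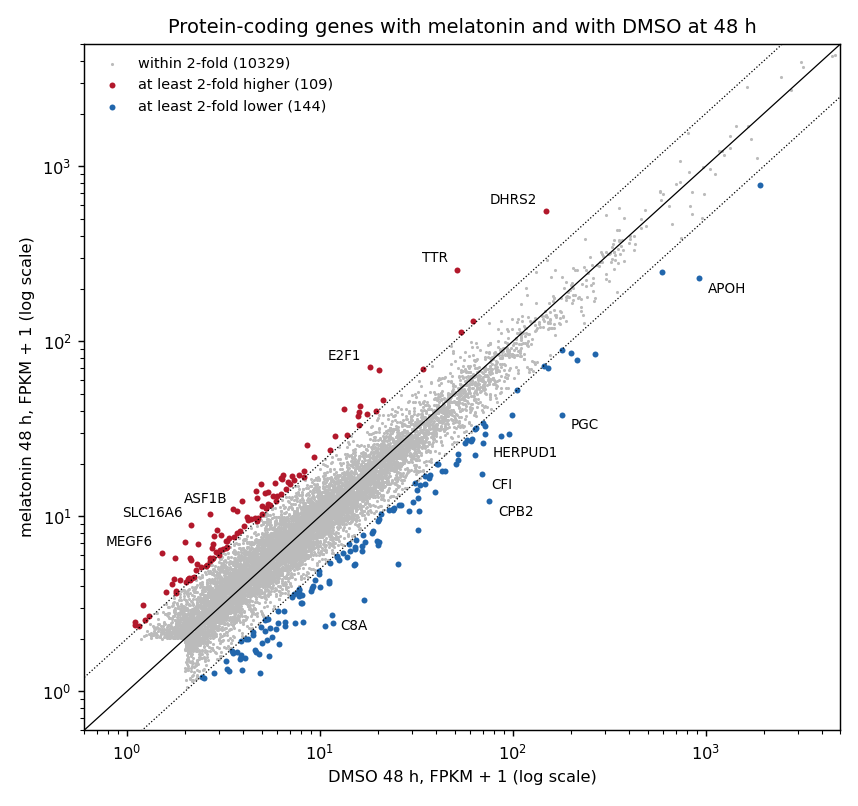
FPKM + 1 of the 10582 compared genes with DMSO (horizontal) and with melatonin (vertical) at 48 h, 1 point a gene, both axes on a log scale, with equality as a solid line and 2-fold as dotted lines. The 109 genes above the upper dotted line and the 144 below the lower one are coloured, and genes with large changes are named.

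The reads on genes summed to between 21616676 and 23086025 per library. The hepatocyte markers were present in each library, with albumin (ALB) at 2759.5 FPKM with DMSO and 2717 with melatonin at 48 h, alpha-fetoprotein (AFP), APOB and SERPINA1 also high, and the regulator HNF4A at 34.9 and 43.8. Of the endothelial markers 0 of 6 reached an FPKM of 1 at 48 h, and TEK, KDR and EMCN were listed at 0. Of the 8 fibroblast and stellate markers 2 were compared, PDGFRB at 3.58 and 4.33 FPKM with DMSO and melatonin and ACTA2 at 2.11 and 3.30, whereas DCN, COL1A2 and COL3A1 were listed at 0. The T cell marker CD3E was listed at 0 as well, whereas lysozyme (LYZ) stood at 736 and 1069 FPKM. The membrane receptor genes were at or near 0, with 1 read on MTNR1A and 0 on MTNR1B in the 48 h libraries together, which is under the 3 reads taken as the floor.

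The groups that were higher and those that were lower differed in function. DNA replication, homologous recombination, deoxynucleotide supply, mitosis, histone chaperones and cholesterol synthesis had medians well above that of all genes, and ER chaperones, plasma proteins, complement, bile acid genes and ATF4-linked genes had medians below it. Of 58 gene lists, 18 are described because at least 8 genes were compared and the median lay at least 0.3 from that of all genes or at least 15% of the genes compared passed 2-fold. The other lists with 8 or more genes compared had medians between -0.29 and 0.18. Among these, 0 of 35 proteasome subunits, 0 of 82 cytosolic ribosomal proteins, 0 of 76 mitochondrial ribosomal proteins and 0 of 72 nuclear-encoded respiratory chain subunits passed 2-fold.

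**Figure D2:**
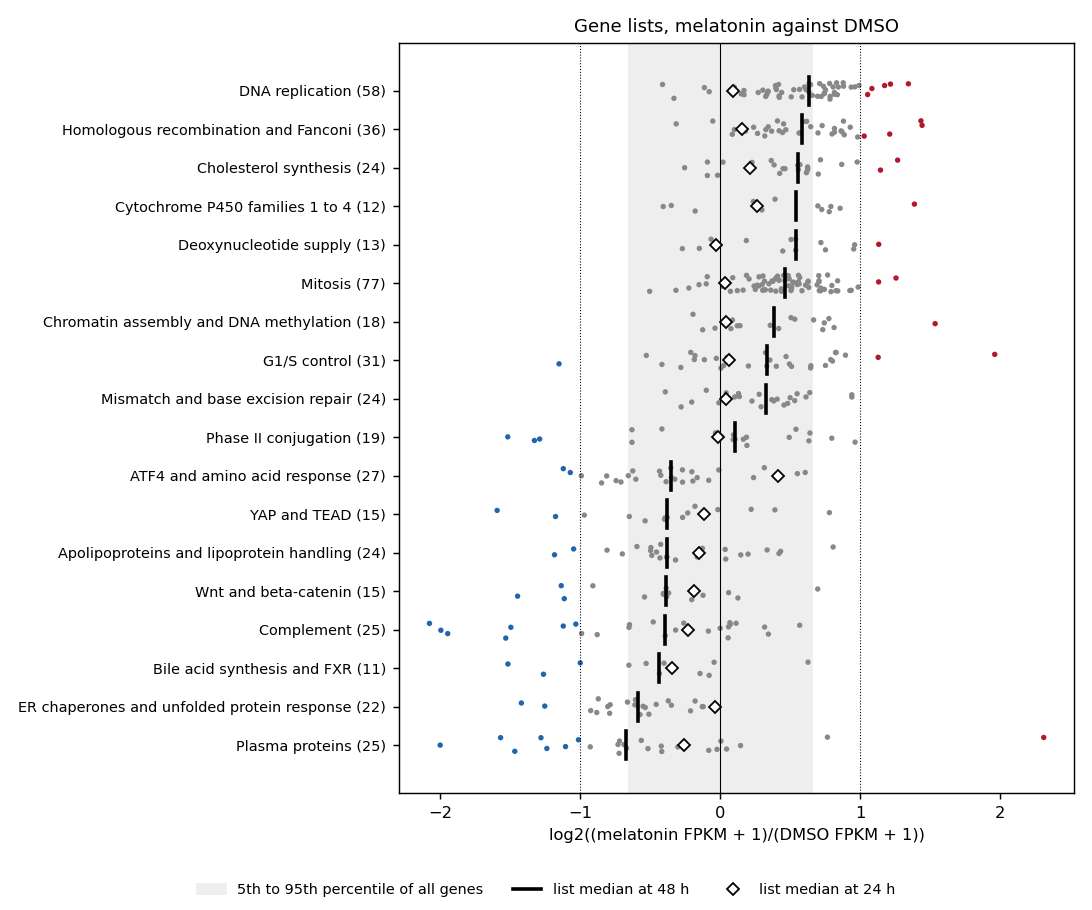
Log2 fold change of melatonin over DMSO at 48 h (horizontal) for each compared gene of the 18 lists, with the number of genes in brackets. The black bar is the list median at 48 h, the diamond the list median at 24 h, the grey band the 5th to 95th percentile of all compared genes (-0.65 to 0.65), and coloured points are past 2-fold. DNA replication has the highest median (0.64) and plasma proteins the lowest (-0.67).

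Windows of 300 bases around the gene start, from 250 before it to 50 after it, are shown for genes of groups that moved together, since such groups are known to share promoter elements. The genes shown were chosen because their window holds a match. RefSeq (GRCh38.p14) held a window for 8675 of the compared genes. Letters were searched on both strands, and the matches are a description of the sequence and not of binding. E2F1, a member of the E2F family, and RFC3, a subunit of the clamp loader, are shown for the E2F letters TTTCCCGC, TTTGGCGC, TTTCGCGC or TTTGCCGC. CKAP2L, a spindle protein, is shown for the CHR letters TTTGAA. HSP90B1 and HSPA5, the ER chaperones GRP94 and BiP, are shown for the ER stress element, which is CCAAT, any 9 bases, then CCACG, and so contains the CCAAT box. ASNS, asparagine synthetase, is shown for TGATGNAA, the letters of the ATF4 element. Matches are in capitals, and each window is written on the strand of its gene.
E2F1, chr20:33686336-33686635, minus strand: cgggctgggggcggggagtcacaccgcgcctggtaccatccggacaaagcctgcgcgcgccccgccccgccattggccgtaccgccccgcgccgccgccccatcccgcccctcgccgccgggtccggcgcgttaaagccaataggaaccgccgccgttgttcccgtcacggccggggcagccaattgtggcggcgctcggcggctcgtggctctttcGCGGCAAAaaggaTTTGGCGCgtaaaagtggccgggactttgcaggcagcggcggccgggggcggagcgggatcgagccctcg
RFC3, chr13:33817899-33818198, plus strand: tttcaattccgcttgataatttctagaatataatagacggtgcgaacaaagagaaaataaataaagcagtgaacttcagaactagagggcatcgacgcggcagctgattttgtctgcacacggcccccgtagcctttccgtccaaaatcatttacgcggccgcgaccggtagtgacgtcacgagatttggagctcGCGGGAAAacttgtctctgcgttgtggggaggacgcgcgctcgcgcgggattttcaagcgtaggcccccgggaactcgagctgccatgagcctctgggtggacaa
CKAP2L, chr2:112764560-112764859, minus strand: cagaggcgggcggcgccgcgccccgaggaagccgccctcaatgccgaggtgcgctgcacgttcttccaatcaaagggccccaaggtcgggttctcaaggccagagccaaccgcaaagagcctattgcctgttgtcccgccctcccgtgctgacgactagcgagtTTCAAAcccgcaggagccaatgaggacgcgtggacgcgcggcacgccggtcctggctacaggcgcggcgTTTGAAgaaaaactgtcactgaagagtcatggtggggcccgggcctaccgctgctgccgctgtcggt
HSP90B1, chr12:103930160-103930459, plus strand: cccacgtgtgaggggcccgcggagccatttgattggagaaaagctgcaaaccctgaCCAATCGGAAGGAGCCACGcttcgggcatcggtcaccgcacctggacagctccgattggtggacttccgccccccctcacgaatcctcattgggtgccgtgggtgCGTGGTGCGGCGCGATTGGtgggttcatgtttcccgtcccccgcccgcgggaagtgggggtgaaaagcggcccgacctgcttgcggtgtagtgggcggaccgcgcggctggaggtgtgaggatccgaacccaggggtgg
HSPA5, chr9:125241294-125241593, minus strand: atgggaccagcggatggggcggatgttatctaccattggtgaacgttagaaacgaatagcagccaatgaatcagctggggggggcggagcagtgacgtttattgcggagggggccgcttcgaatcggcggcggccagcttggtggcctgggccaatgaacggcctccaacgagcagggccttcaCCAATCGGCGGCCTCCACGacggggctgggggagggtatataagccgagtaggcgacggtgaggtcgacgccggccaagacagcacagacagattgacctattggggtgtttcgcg
ASNS, chr7:97872359-97872658, minus strand: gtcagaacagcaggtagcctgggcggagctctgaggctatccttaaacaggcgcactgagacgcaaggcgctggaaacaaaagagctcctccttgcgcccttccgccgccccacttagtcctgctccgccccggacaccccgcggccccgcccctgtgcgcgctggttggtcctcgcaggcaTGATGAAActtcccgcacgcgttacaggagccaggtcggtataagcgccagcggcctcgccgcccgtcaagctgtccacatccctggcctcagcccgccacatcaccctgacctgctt

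The E2F letters were in 20 of the 50 windows of DNA replication genes (40.0%), against 5.68% of all windows. They were in 6 of 18 windows of chromatin assembly genes and 6 of 32 of homologous recombination and Fanconi genes, but in 5 of 64 of mitosis genes. Lists that moved little also held them. They were in 3 of 16 windows of replication-dependent histones (median log2 fold change 0.07) and 3 of 18 of the methionine and folate cycles (0.18). The CHR letters were in 41 of the 64 windows of mitosis genes (64.1%), against 9.52% of all windows, and in 1 of the 50 of DNA replication genes. CCAAT boxes were in 45 of these 64 mitosis windows and in 17 of the 21 windows of ER chaperone genes, against 37.0% of all windows. The whole ER stress element was in 6 of the 21 ER chaperone windows, against 14 of all 8675. The ATF4 letters were in 4 of the 22 windows of ATF4-linked genes, against 1.602% of all windows. They were not particular to that list. Aminoacyl-tRNA synthetases, with a median log2 fold change of only -0.14, had them in 6 of 16 windows, and bile acid genes in 2 of 9. CCAAT was also in 28 of the 50 DNA replication windows and in 14 of the 22 windows of ATF4-linked genes. Lists that moved little had it as often. It was in 13 of 16 windows of replication-dependent histones (median log2 fold change 0.07) and 9 of 15 of tubulins and actins (0.11). No difference between groups was tested. Other genes of the same groups that are named for their change had no match to the letters of their group, among them TIMELESS, ASF1B, TK1, RRM2 and CCNE1 for E2F, SPC24 for CHR, HERPUD1 for the ER stress element, and DDIT3 and STC2 for ATF4. Windows were held for fewer than 80% of the plasma protein, complement, apolipoprotein and cholesterol synthesis genes. No shares are given for those, nor for the Wnt and YAP genes. All these shares belong to lists drawn up by function, whatever their genes did at 48 h. Of the genes at least 2-fold higher, 12 of 82 windows held the E2F letters and 11 the CHR letters. Of those at least 2-fold lower, 4 and 17 of 109 windows did. Windows were held for 75.2% and 75.7% of these higher and lower genes. Replication-dependent histones, with a median log2 fold change of 0.07, had the CHR letters in 6 of 16 windows.

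DNA replication had the highest median of the 18 lists at 48 h, except with a pseudocount of 0.1, where homologous recombination (0.743) and cytochrome P450 genes (0.739) exceeded it (0.716). Its median log2 fold change over 58 genes was 0.64, 5 genes were at least 2-fold higher and 0 lower, 33 were at least 1.5-fold higher and 0 lower, and 54 lay above 0. In each pair of levels given from here on, DMSO comes before melatonin. RFC3 stood at 11.998 and 17.5 FPKM at 24 h and at 4.41 and 12.8 at 48 h, a ratio at 48 h of 2.89 (95% counting interval 2.52 to 3.33). TIMELESS, which protects the fork, was at 16.1 and 19.0 FPKM at 24 h and at 5.79 and 14.8 at 48 h (log2 fold change 1.22). GINS2, a part of the replicative helicase, was at 13.3 and 12.6 FPKM at 24 h and at 3.24 and 8.58 at 48 h (1.18). CDC6, which loads the helicase at origins, was at 12.5 and 14.9 FPKM at 24 h and at 4.23 and 10.1 at 48 h (1.09). In each of these genes the DMSO library of 48 h was the lowest of the 4. The melatonin library of 48 h lay below both 24 h libraries in TIMELESS, GINS2 and CDC6, and between them in RFC3. GINS2 overlaps GSE1 on the other strand, at 15.1 and 10.5 FPKM at 48 h.

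All steps of replication were represented. The median log2 fold change was 0.59 for the 15 origin licensing genes, 0.79 for the 11 origin firing genes, 0.41 for the 12 polymerase and primase genes, 0.64 for the 13 genes of the clamp, its loader and Okazaki fragment processing, and 0.75 for the 7 fork protection genes. All 11 firing genes and all 7 fork genes lay above 0. The exceptions below 0 were ORC2 (-0.33), ORC4 (-0.11), RNASEH1 (-0.08) and POLD4 (-0.41), named after their values were seen.

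Genes that supply deoxynucleotides had a median of 0.54 over 13 genes, with 1 of them at least 2-fold higher, 5 at least 1.5-fold higher and 0 lower at 1.5-fold. Thymidine kinase TK1 stood at 58.3 and 54.5 FPKM at 24 h with DMSO and melatonin and at 16.5 and 37.4 at 48 h (log2 fold change 1.13). RRM2, the regulated subunit of ribonucleotide reductase, was at 11.9 and 16.8 FPKM at 24 h and at 3.67 and 8.11 at 48 h (0.96). Thymidylate synthase TYMS had a log2 fold change of 0.75. Purine and pyrimidine synthesis, by contrast, had a median of 0.10 over 17 genes, with 0 past 2-fold.

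Homologous recombination and Fanconi genes, which repair broken and cross-linked DNA, had a median of 0.58 over 36 genes, of which 4 were at least 2-fold higher, 18 at least 1.5-fold higher, 0 lower at 1.5-fold and 34 above 0. EME1, part of a nuclease that cuts recombination intermediates, was at 3.11 and 4.25 FPKM at 24 h and at 1.12 and 4.77 at 48 h (log2 fold change 1.44). RMI2, which acts with the BLM helicase, was at 21.0 and 20.8 FPKM at 24 h and at 5.40 and 16.3 at 48 h (1.44). POLQ, the polymerase of microhomology-mediated joining, was at 3.38 and 5.16 FPKM at 24 h and at 1.30 and 4.33 at 48 h (1.21), and BRCA1 was at 6.22 and 8.09 and then at 1.70 and 4.52 (1.03). The median was 0.70 for 11 strand exchange genes, 0.58 for 12 resection and resolution genes and 0.42 for 13 Fanconi genes. EME1, RMI2 and BRCA1 overlap other expressed genes on the opposite strand, and the strandedness of the counting is not given in the sources used here.

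Mismatch and base excision repair genes had a lower median of 0.33 over 24 genes, with 0 past 2-fold and 4 at least 1.5-fold higher. All 7 mismatch repair genes lay above 0. Among the base excision enzymes NEIL3 had a log2 fold change of 0.94, OGG1 of 0.64 and the uracil glycosylase UNG of 0.61. Nucleotide excision repair had a median of 0.09 over 17 genes.

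Histone chaperones, which place histones on newly made DNA, had a median of 0.70 over 8 genes. ASF1B was at 12.6 and 14.9 FPKM at 24 h and at 2.71 and 9.77 at 48 h, a ratio of 3.60 (2.98 to 4.39) and a log2 fold change of 1.54. UHRF1, which guides maintenance of DNA methylation, had a log2 fold change of 0.78 and CHAF1B, a subunit of the chromatin assembly factor, of 0.74. The 10 methyltransferase genes of the same list had a median of 0.11, with DNMT3B (0.81) the highest.

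Mitosis genes had a median of 0.46 over 77 genes. Of these 2 were at least 2-fold higher and 0 lower, 24 were at least 1.5-fold higher and 0 lower, and 71 lay above 0. SPC24, of the outer kinetochore, was at 7.04 and 8.11 FPKM at 24 h and at 1.77 and 5.62 at 48 h (log2 fold change 1.26). CENPM, of the inner kinetochore, was at 6.77 and 9.98 FPKM at 24 h and at 2.31 and 6.26 at 48 h (1.13), and CKAP2L had a log2 fold change of 0.99 and ZWINT of 0.94. Both genes past 2-fold belong to the kinetochore, whose 15 genes had a median of 0.71, against 0.41 for 20 kinases, cyclins and checkpoint genes, 0.48 for 20 kinesins and spindle genes and 0.42 for 22 genes of condensin, chromatid separation and cytokinesis. PLK1 (-0.50), ECT2 (-0.32) and KIF20A (-0.22) were the lowest and were named after their values were seen.

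The G1/S control genes were less uniform, with a median of 0.33 over 31 genes, 2 at least 2-fold higher, 1 at least 2-fold lower and 22 above 0. With a minimum FPKM of 5 the median was 0.05 over 20 genes. E2F1 was at 31.5 and 50.2 FPKM at 24 h and at 17.2 and 70.0 at 48 h, a ratio of 4.07 (3.79 to 4.37). Unlike the replication genes above, its level with melatonin at 48 h was the highest of the 4 libraries. Cyclin E1 (CCNE1) was at 6.71 and 9.84 FPKM at 24 h and at 4.36 and 10.7 at 48 h (log2 fold change 1.13), and the CDK4/6 inhibitor CDKN2C had a log2 fold change of 0.90. CDKN1A, the p53-regulated inhibitor p21, was at 25.3 and 16.2 FPKM at 24 h and at 60.3 and 26.6 at 48 h (-1.15).

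Cholesterol synthesis had a median of 0.56 over 24 genes, 2 of them at least 2-fold and 10 at least 1.5-fold higher, with 0 lower at 1.5-fold. The difference lay with the enzymes, of which 19 of 20 were above 0 with a median of 0.59, whereas the 4 regulators compared had a median of -0.09. MSMO1, which removes the C4 methyl groups of sterols, was at 27.4 and 43.0 FPKM at 24 h and at 10.9 and 27.8 at 48 h (log2 fold change 1.27). The sterol reductase TM7SF2 was at 22.4 and 38.4 FPKM at 24 h and at 6.77 and 16.2 at 48 h (1.15). MVD of the mevalonate pathway had a log2 fold change of 0.87. For each of these genes melatonin was above DMSO at both times, and both 48 h libraries were below their 24 h counterparts. Fatty acid and triglyceride synthesis had a median of 0.02 over 24 genes.

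ER chaperones and genes of the unfolded protein response all lay below 0 at 48 h. Their median was -0.59 over 22 genes, of which 2 were at least 2-fold and 11 at least 1.5-fold lower and 0 higher at 1.5-fold. HERPUD1, which takes part in ER-associated degradation, was at 26.7 and 24.0 FPKM at 24 h and at 69.5 and 25.3 at 48 h, with DMSO and melatonin in that order (log2 fold change -1.42). HSP90B1 was at 268 and 215 FPKM at 24 h and at 596 and 249 at 48 h, where the DMSO level was 2.39 times that with melatonin (2.36 to 2.43). HSPA5, the most abundant of the 4 named, was at 560.2 and 478 FPKM at 24 h and at 957 and 503 at 48 h (-0.93), and the disulfide isomerase PDIA3 was at 136 and 132 and then at 234 and 127 (-0.88). In these genes the DMSO library of 48 h stood apart as the highest, and the melatonin library of 48 h lay within the 24 h pair or, for PDIA3, just below it. The cytosolic and mitochondrial heat shock proteins had a median of -0.10 over 15 genes.

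ATF4-linked genes had a median of -0.35 over 27 genes, with 2 at least 2-fold lower, 10 at least 1.5-fold lower, 1 at least 1.5-fold higher and 23 below 0. SLC3A2, the heavy chain of amino acid transporters, was at 91.0 and 106 FPKM at 24 h and at 151 and 69.0 at 48 h (log2 fold change -1.12). DDIT3, the stress factor CHOP, was at 5.21 and 5.72 FPKM at 24 h and at 19.3 and 8.64 at 48 h (-1.07). It overlaps MARS on the other strand, at 45.0 and 32.5 FPKM at 48 h. The secreted glycoprotein STC2 had a log2 fold change of -0.99 and ASNS one of -0.85, with ASNS at 4.002 FPKM with DMSO and 1.78 with melatonin at 48 h. At 24 h the median of the same list was 0.42, with 23 of 27 genes above 0, so that the list lay on opposite sides of 0 at the 2 times. PCK2, a mitochondrial enzyme of gluconeogenesis and the gene counted at least 1.5-fold higher, was at 91.5 and 143 FPKM at 24 h and at 55.7 and 85.5 at 48 h.

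**Figure D3:**
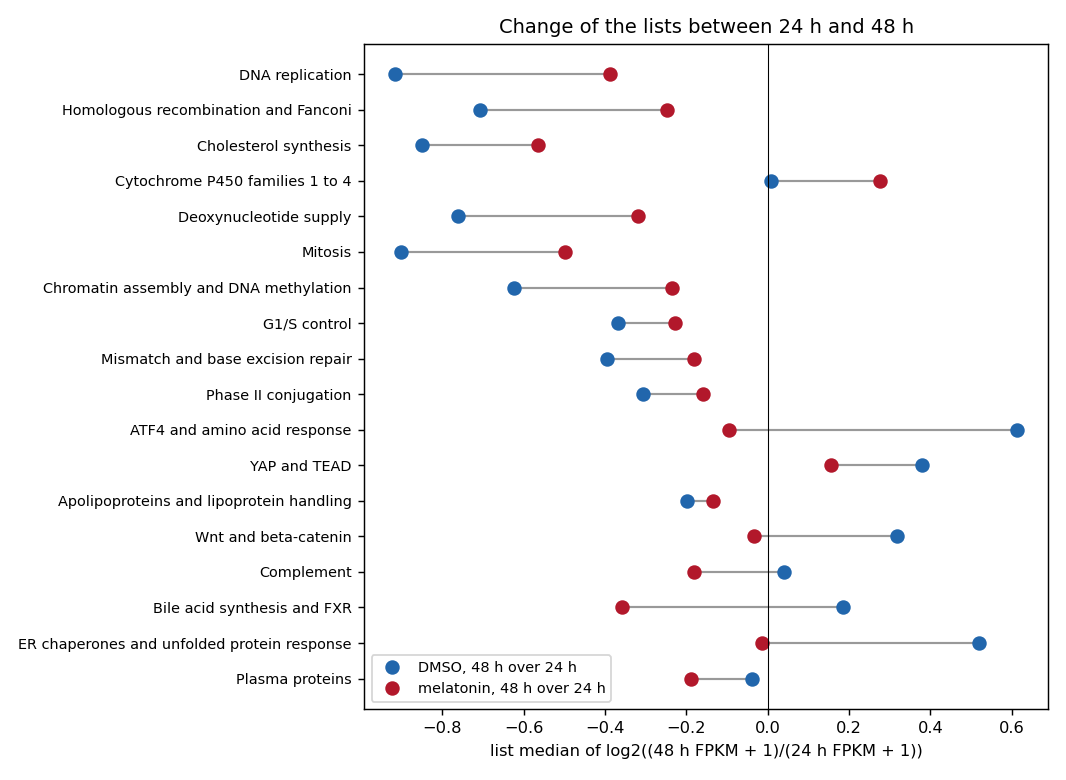
Median over each of the 18 lists of log2((48 h FPKM + 1)/(24 h FPKM + 1)) with DMSO (blue) and with melatonin (red). The medians for DNA replication were -0.92 with DMSO and -0.39 with melatonin, and those for ER chaperones 0.52 and -0.01.

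The change from 24 h to 48 h differed between the treatments in many lists, and each such comparison shares its 48 h library with the comparison of melatonin and DMSO at 48 h. The median log2 change over time for DNA replication was -0.92 with DMSO and -0.39 with melatonin, and for mitosis it was -0.90 and -0.50. Cholesterol synthesis had -0.85 with DMSO and -0.57 with melatonin. For ER chaperones the values were 0.52 and -0.01, and for ATF4-linked genes 0.61 and -0.09. Over the same interval the mitochondrial share of reads went from 20.0% to 9.77% with DMSO and from 16.6% to 11.9% with melatonin, and its part in these changes was not tested. The replication and mitosis lists were lower at 48 h than at 24 h under both treatments and lower still with DMSO, while the ER and ATF4 lists were higher at 48 h with DMSO. In total RNA of a culture, fewer dividing cells and less mRNA per dividing cell cannot be told apart.

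Plasma proteins had the lowest median of the 18 lists except without a minimum FPKM, where they stood at -0.42 and ER chaperones at -0.59. The median was -0.67 over 25 genes, of which 7 were at least 2-fold lower and 1 higher, and 13 at least 1.5-fold lower and 2 higher. Beta-2-glycoprotein I (APOH) was at 945 and 457 FPKM at 24 h and at 919 and 229 at 48 h, so that DMSO exceeded melatonin by 4.02 times at 48 h (3.91 to 4.13). Alpha-fetoprotein (AFP), the fetal albumin-like protein used as an HCC marker, was at 1131 and 985 FPKM at 24 h and at 1902 and 782 at 48 h (log2 fold change -1.28). The heme carrier HPX was at 6.09 and 2.01 FPKM at 24 h and at 2.93 and 0.322 at 48 h (-1.57). The acute phase protein ORM1 was at 168 and 96.4 FPKM at 24 h and at 215 and 77.1 at 48 h (-1.47), and its near-identical copy ORM2 makes its count uncertain. Transthyretin (TTR), a carrier of thyroid hormone and of retinol-binding protein, went the other way, with the largest log2 fold change of all genes compared at a pseudocount of 1. By the plain FPKM ratio MEGF6 (10.1), SLC16A6 (6.88), GPCPD1 (6.26), LFNG (6.18) and MIXL1 (5.53), all lower in level, exceeded it. It was at 41.9 and 46.8 FPKM at 24 h and at 50.6 and 256 at 48 h, a ratio of 5.05 (4.83 to 5.28), with 3 libraries close together and the melatonin library of 48 h alone far above them. Albumin had a log2 fold change of -0.02 and its fellow carrier RBP4, named after its values were seen, one of 0.01. Plasma proteins thus differed among themselves.

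Complement genes had a median of -0.39 over 25 genes, with 7 at least 2-fold and 11 at least 1.5-fold lower and 0 higher at 1.5-fold. C8A and C8B, chains of the component C8 of the membrane attack complex, were at 10.5 and 3.88 FPKM with DMSO and at 1.72 and 0.264 with melatonin at 48 h, with log2 fold changes of -2.08 and -1.95. The protease CFI, which inactivates C3b, was at 66.5 and 34.5 FPKM at 24 h and at 68.3 and 16.4 at 48 h (-1.997). Its cofactor C4BPA was at 15.9 and 12.3 FPKM at 24 h and at 18.9 and 5.89 at 48 h (-1.53). Those lower were among both the 16 components, of which 3 passed 2-fold, and the 9 regulators, of which 4 did. C3, the most abundant component, did not pass, at 826 and 593 FPKM. In coagulation and fibrinolysis the median was -0.23 over 22 genes and 2 were at least 2-fold lower, among them CPB2.

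Apolipoproteins and genes of lipoprotein handling had a median of -0.38 over 24 genes, with 2 at least 2-fold lower and 0 higher. ANGPTL8, which inhibits lipoprotein lipase, was at 2.90 and 2.94 FPKM at 24 h and at 7.05 and 2.54 at 48 h (log2 fold change -1.18). APOF was at 5.02 and 1.75 FPKM at 24 h and at 3.51 and 1.18 at 48 h (-1.05), and hepatic lipase LIPC had a log2 fold change of -0.81. APOA2, a major protein of high-density lipoprotein, was at 1000 and 1561 FPKM at 24 h and at 1630 and 2853 at 48 h (0.81). APOB had a log2 fold change of 0.04.

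Bile acid genes had a median of -0.43 over 11 genes, with 3 at least 2-fold lower and 0 higher. Without a minimum FPKM, which adds genes barely detected here, the median was -0.21 over 19 genes. The bile acid receptor FXR (NR1H4) was at 12.4 and 5.84 FPKM at 24 h and at 14.3 and 4.33 at 48 h (log2 fold change -1.52). SLC51B, a chain of the bile acid exporter and a known FXR target, was at 3.19 and 2.20 FPKM at 24 h and at 7.96 and 2.73 at 48 h (-1.26). The FGF19 co-receptor KLB was at 30.2 and 14.6 FPKM at 48 h (-1.0001), at the threshold, and it fell short of it under 4 of the other scalings and corrections. NR0B2 (SHP), another known FXR target and named after its values were seen, was at 32.7 and 67.7 FPKM at 24 h and at 49.1 and 76.4 at 48 h (0.63). The 5 synthesis enzymes all lay below 0, with BAAT, which conjugates bile acids, at 1.76 and 0.757 FPKM at 48 h (-0.65).

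The enzymes of drug metabolism did not move as a group. Cytochrome P450 genes of families 1 to 4 had a median of 0.55 over 12 genes, 1 at least 2-fold and 6 at least 1.5-fold higher and 0 lower at 1.5-fold, but without a minimum FPKM the median was 0.03 over 29 genes. CYP1A1, which hydroxylates melatonin and is the best-known target of the aryl hydrocarbon receptor, was at 1.24 and 5.55 FPKM at 24 h and at 4.18 and 12.6 at 48 h, a ratio of 3.01 (2.64 to 3.43). CYP2S1, CYP2J2 and CYP2U1 had log2 fold changes of 0.86, 0.79 and 0.78. Phase II conjugation enzymes had a median of 0.11 over 19 genes, with 3 at least 2-fold lower, 0 at least 2-fold higher, 5 at least 1.5-fold lower and 4 at least 1.5-fold higher. Those at least 2-fold lower were the glucuronosyltransferases UGT2B7 (14.1 and 4.27 FPKM with DMSO and melatonin at 48 h) and UGT2B4 (7.06 and 2.21), members of a family of near-identical copies, and the sulfotransferase SULT2A1 (43.3 and 17.1). GSTZ1, which catabolizes tyrosine, had a log2 fold change of 0.97.

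The Wnt and YAP lists both had medians below 0. Wnt and beta-catenin genes had a median of -0.39 over 15 genes, with 3 at least 2-fold lower and 0 higher. The Wnt antagonist DKK1 was at 36.7 and 19.7 FPKM at 24 h and at 18.7 and 6.21 at 48 h (log2 fold change -1.45). NKD1, a feedback inhibitor, was at 70.9 and 31.7 FPKM at 48 h (-1.14), the R-spondin receptor LGR5 at 55.5 and 25.1 (-1.11) and AXIN2 at 33.2 and 17.2 (-0.91). Beta-catenin itself (CTNNB1) had a log2 fold change of 0.06, and the Wnt deacylase NOTUM, named like it after its values were seen, one of 0.70.

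YAP and TEAD genes had a median of -0.38 over 15 genes, with 2 at least 2-fold lower and 0 higher. The adaptor AJUBA was at 61.4 and 25.9 FPKM at 24 h and at 86.0 and 27.8 at 48 h (-1.59), and the YAP target ANKRD1 was at 12.5 and 5.66 and then at 13.2 and 5.30 (-1.18). AMOTL2, which holds YAP in the cytoplasm, had a log2 fold change of -0.97. CTGF, a widely used YAP target, was at 83.2 and 96.1 FPKM at 24 h and at 116 and 201 at 48 h (0.78), on the other side of 0.

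On the log2 scale with a pseudocount of 1, the largest rises besides TTR and E2F1 came from genes of varied function. The monocarboxylate transporter SLC16A6 was at 2.96 and 4.25 FPKM at 24 h and at 1.16 and 7.95 at 48 h (log2 fold change 2.05). MEGF6, a protein with EGF-like repeats, was at 1.21 and 4.23 FPKM at 24 h and at 0.512 and 5.15 at 48 h (2.02). The homeobox factor MIXL1 was at 9.10 and 23.6 FPKM at 24 h and at 1.69 and 9.32 at 48 h (1.94). In these 3 genes melatonin exceeded DMSO at both times. SLC16A6 overlaps ARSG on the other strand, at 1.25 and 2.69 FPKM at 48 h. DHRS2, a short-chain dehydrogenase, was the most abundant of the named rises, at 237 and 558 FPKM at 24 h and at 147 and 553 at 48 h (1.91). LFNG, which adds sugars to Notch, was at 0.987 and 6.10 FPKM at 48 h (1.84), and C10orf10, a FOXO target, at 19.1 and 67.5 (1.77). GPCPD1, which splits glycerophosphocholine, was at 1.73 and 6.97 FPKM at 24 h and at 0.763 and 4.78 at 48 h (1.71). IGFBP3, a binding protein of insulin-like growth factors, the amino acid transporter SLC43A2, the fucose mutarotase FUOM, the hyaluronan-binding protein CEMIP, the steroid dehydrogenase HSD17B2 and OGDHL, a relative of an enzyme of the citric acid cycle, had log2 fold changes from 1.57 to 1.63.

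The largest falls also came from genes of varied function. CPB2, a carboxypeptidase that slows fibrinolysis, was at 59.6 and 18.9 FPKM at 24 h and at 74.7 and 11.2 at 48 h, where the DMSO level was 6.66 times that with melatonin (6.03 to 7.38). ODAM, a secreted protein of ameloblasts, was at 17.3 and 4.39 FPKM at 24 h and at 16.0 and 2.31 at 48 h (log2 fold change -2.36). Pepsinogen C (PGC) was at 146 and 98.6 FPKM at 24 h and at 179 and 37.1 at 48 h (-2.24). The melatonin libraries were below the DMSO libraries at both times in these 3 genes. The cytokine TNFSF14 was at 2.46 and 0.640 FPKM at 24 h and at 9.68 and 1.36 at 48 h (-2.18), and the activin subunit INHBE at 14.5 and 7.72 and then at 31.1 and 7.35 (-1.94). The phosphate transporter SLC17A2 was at 10.7 and 1.46 FPKM at 48 h (-2.25), the secreted phospholipase PLA2G2A at 4.47 and 0.588 (-1.78), keratin KRT23 at 7.21 and 1.49 (-1.72), the betaine and GABA transporter SLC6A12 at 5.14 and 0.870 (-1.71) and the adrenergic receptor ADRA2C at 95.2 and 28.6 (-1.70). EIF3CL, at 24.3 and 4.34 FPKM (-2.24), is a near-identical copy of EIF3C, and its count is uncertain.

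**Figure D4:**
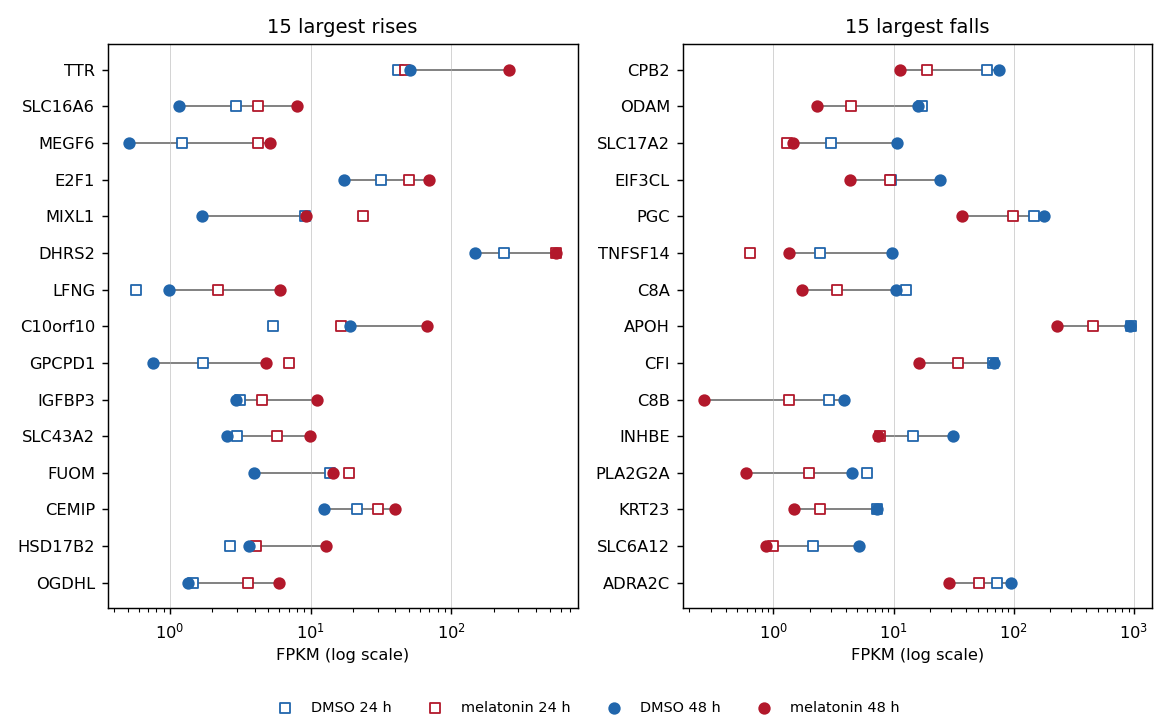
FPKM (log scale) of the 15 genes with the largest rise and the 15 with the largest fall at 48 h in each of the 4 libraries, with DMSO in blue, melatonin in red, 24 h as open squares and 48 h as filled circles, and a line joining the 48 h pair. For TTR the melatonin library of 48 h (256) lies apart from the other libraries (41.9 to 50.6), whereas for CPB2 both melatonin libraries (18.9 and 11.2) lie below both DMSO libraries.

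The 24 h libraries, which share no library with the 48 h pair, give the same genes at the earlier time. Of the 10582 genes, 18 (0.17%) were at least 2-fold higher with melatonin at 24 h and 40 (0.378%) at least 2-fold lower. The median log2 fold change of all these genes at 24 h was 0.04, itself slightly above 0. Of the 109 genes higher at 48 h, 100 were above 0 and 9 at least 2-fold higher at 24 h, and their median at that time was 0.46. Of the 144 lower at 48 h, 132 were below 0 and 21 at least 2-fold lower at 24 h, with a median of -0.51, and 2 were at least 2-fold higher at 24 h. DNA replication had a median of 0.09 at 24 h and mitosis one of 0.03, against 0.64 and 0.46 at 48 h. Plasma proteins had -0.26 at 24 h, complement -0.23 and bile acid genes -0.35, against -0.67, -0.39 and -0.43 at 48 h.

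Of 6 markers of bile duct cells 4 were compared, and 3 of these were at least 1.5-fold lower with melatonin at 48 h. The summed level of the 6 was 398 and 241 FPKM at 24 h and 443 and 223 at 48 h with DMSO and melatonin. Osteopontin (SPP1), past 2-fold, was at 265 and 84.1 FPKM at 48 h and made up most of that difference. EPCAM and KRT19 were the others at least 1.5-fold lower, and the median log2 fold change of the 4 compared was -0.82. The SOX9 level was 80.1 and 84.1, whereas CFTR was listed at 0 and KRT7 was near 0. The part of these markers in the lower groups was not tested. The 109 higher and 144 lower genes were shorter than the rest, with median lengths of 3538 and 3199.5 bp against 4993.5 bp for all compared genes. After a correction of the fold changes for gene length, 108 genes were higher and 145 lower.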

How the data were processed

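Polyadenylated RNA of HepG2 cells was sequenced by the authors in 4 libraries, 1 per condition, without replicates. Per the study's methods, paired-end reads were mapped to hg38 with MapSplice and expression was taken with Cufflinks; the submitters' processing notes name Bowtie2 2.0.6, TopHat2 2.0.9, Cufflinks 2.1.1 and Cuffdiff 2.1.1. The authors deposited FPKM per Ensembl gene, with the gene length in bp beside it. Multiplied by length, 100% of the values were whole multiples of a step fixed for the library, and these multiples were taken as reads. They summed to 21616676 and 22850046 at 24 h and 23086025 and 22820651 at 48 h for DMSO and melatonin, which is not the denominator of the FPKM. The floor of 3 reads was an FPKM of 0.137 and 0.135 for a 1 kb gene in the 48 h libraries.

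Genes compared were protein-coding, at least 200 bp long and at an FPKM of at least 1 in either 48 h library. Fold changes were taken on log2 FPKM after adding a pseudocount of 1, with thresholds of 2-fold and 1.5-fold. Intervals of FPKM ratios are 95% exact binomial intervals (Clopper-Pearson) of the reads. Intervals of list medians are binomial intervals on the ranked fold changes of the genes of a list. Lists are described by counts and medians beside those of all genes. Named genes were the 15 largest rises and 15 largest falls with at least 50 reads in either library, the 4 largest changes in each of 18 lists, the cell type markers and the melatonin receptors; the genes and lists were chosen with earlier results of these data known. Promoter windows came from RefSeq, and letters of sterol, HNF1, HNF4, xenobiotic and FOXO elements were also searched there and are not described. Of the 96 genes so named, markers apart, 24 overlap another gene expressed at 1/10 or more of their level, 16 of them on the other strand.

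Alternatives were a pseudocount of 0.1, no minimum FPKM or one of 5, a minimum of 50 reads, TPM, centring, 2 other library sizes, a length correction and, chosen after seeing the data, a correction for GC content and length. The scripts were tested on simulated data. Python 3.11, numpy 2.4.6, pandas 2.3.3, scipy 1.17.1 and matplotlib 3.10.9 were used. Splicing was not analysed here. A few genes that the naming rule takes are not reported here.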

Additional observations from a re-analysis of the deposited data

Results flagged for a closer look

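The list of ATF4-linked genes lay on opposite sides of 0 at the 2 times, with a median log2 fold change of melatonin over DMSO of 0.42 at 24 h and -0.35 at 48 h. With 1 library for each condition the difference between the times was not tested.

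Long non-coding genes, which the comparison of protein-coding genes leaves out, also differed at 48 h. Antisense RNA genes were left out of the counts that follow. In the classes counted, 392 genes had an FPKM of at least 1 and at least 50 reads. Of these, 7 were at least 2-fold higher with melatonin (1.79%) and 39 at least 2-fold lower (9.95%). NEAT1, the scaffold RNA of paraspeckles, was at 9.89 and 28.5 FPKM with DMSO and melatonin at 24 h and at 13.5 and 62.8 at 48 h. DANCR was at 33.8 FPKM with DMSO and 15.7 with melatonin at 48 h, SNHG3 at 19.4 and 7.09, and MIR34AHG, the host transcript of miR-34a, at 9.51 and 3.86. These 4 genes were named after their values were seen.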

How the results depend on the processing

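With a pseudocount of 0.1 the count of changed genes was 631, with 334 higher and 297 lower, with TPM it was 537 (219 and 318), and at 1.5-fold it was 1390 (717 and 673). Under the other alternatives the count ranged from 189 at a minimum FPKM of 5 to 275 with mitochondrial genes left out of the library size, where 54.5% of the changed genes were higher against 43.1% in the main comparison. Of 180 list medians recomputed, 178 kept their sign and stayed within the interval of the main median over its genes. The exceptions were mitosis with a pseudocount of 0.1 (0.56) and phase II conjugation without a minimum FPKM (-0.031). The cause of these 2 was not tested. The intervals of list medians treat the genes of a list as independent and hold no spread between cultures, so staying within them is not a test. Some intervals are wide, so that staying within them does not mean a stable median. Cytochrome P450 genes went from 0.55 to 0.03 without a minimum FPKM, within an interval of -0.18 to 0.79. G1/S control went from 0.33 to 0.05 at a minimum FPKM of 5, within 0.006 to 0.65. Without a minimum FPKM, which adds genes barely detected, plasma proteins had a median of -0.42, and bile acid genes had one of -0.69 with a pseudocount of 0.1. No scaling moved the median of all genes by over 0.1. Of the named genes only KLB fell short of its 2-fold call, at -0.9993 after the length correction, -0.99 centred, -0.97 with the plain sum of reads and -0.94 without mitochondrial genes. No paired analysis was possible because each condition has 1 library, and for the same reason no replicate could be left out. Depth limits the genes near or below an FPKM of 1, among them the named genes C8B, with 16 reads with melatonin at 48 h, PLA2G2A with 22 and HPX with 26.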
